A study of Danio rerio with 6 samples.

Results

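The nuclear genes for the mitochondrial respiratory chain and ATP synthase were followed in the kidney marrow of adult zebrafish with and without tet2. Members were the genes off the mitochondrial chromosome whose symbol starts with nduf (followed by a, b, c, s or v), uqcr, cox4 to cox8 or atp5, or names a subunit of succinate dehydrogenase (sdha to sdhd). The rule took 100 of the 31484 genes counted. They comprise 38 complex I subunits, 4 genes of the ndufa4 family, 7 complex I assembly factors named NDUFAF, 5 complex II genes, 8 complex III genes, 18 complex IV genes, 18 ATP synthase subunits and 2 genes for the ATP synthase inhibitor. Of these, 97 passed the filter on low counts and were tested among 21893 genes. The untested ones, NDUFA4L2, ndufa4l2b and the SDHD copy on chromosome 5, had at most 13 reads in any library.

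The samples were 3 wild type and 3 tet2 -/- libraries (called tet2 mutant here), labelled as biological replicates, from fish aged 3 to 5 months. The kidney marrow, where adult fish make their blood, was brought into suspension by pipetting and passed through a 70 micron filter before total RNA was sequenced. No allele, sex or number of fish per library is stated in the sources used here, and no sort of the cells is named. Each member's level is given as CPM, its reads scaled to the library's total and TMM factor. Levels of different genes are compared as RPKM, which divides CPM by the gene's length in kilobases.

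The respiratory chain passes electrons from NADH (complex I) and succinate (complex II) through complex III and cytochrome c to oxygen (complex IV). Complexes I, III and IV pump protons out of the mitochondrial matrix, and ATP synthase makes ATP as the protons return. A few subunits are encoded by mitochondrial DNA and all others by nuclear genes. The symbol rule does not take all of these nuclear genes. CYC1, the cytochrome c1 subunit of complex III, is counted with the electron carriers outside the rule. Several complex IV subunits come as alternative isoforms, which in mammals mark heart and skeletal muscle or cells that sense oxygen.

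Libraries held 41285460 to 49229143 counts. The targeted gene, TET2 (ENSDARG00000076928), stood at 48.1, 52.5 and 48.1 CPM in wild type and 51.1, 45.1 and 30.5 in the mutant ones (log2 fold change -0.23, SE 0.20; edgeR, Benjamini-Hochberg adjusted p = 0.696). With the allele undescribed, this level does not check the labels. Blood cell markers were high in all libraries, with 10700 to 22000 summed CPM for 6 neutrophil genes and 9060 to 16900 for the erythroid ones. Egg markers stood apart between libraries, at 8.04, 8.0 and 1080 summed CPM in wild type and 713, 444 and 4540 in the mutant ones, so that both libraries numbered 3 held the most of their genotype. Results were therefore also computed without both libraries numbered 3. Among the libraries left, egg markers still separated the genotypes (8.04 and 8.0 against 713 and 444 summed CPM). That fit therefore does not take egg content out of the comparison.

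All 5 complexes were transcribed at high level in both genotypes, and 75 of the 97 members tested (77.3%) lay in the top 10% of genes by mean RPKM, which began at 31.9 RPKM. The highest member was ATP5F1B, the catalytic beta subunit of ATP synthase, at 625 RPKM in wild type and 591 in tet2 mutant libraries, rank 132 of 21893 genes over all libraries. Next in RPKM came ATP5F1A (the alpha subunit, mean 457), atp5mc3b (a gene for the proton-carrying c ring, 413), COX4I1 (the common form of complex IV subunit 4, 404) and the COX5B copy on chromosome 10 (383).

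Levels per length differed by complex. The mean RPKM per member was 46.7 for complex I, 41.2 for complex II, 55.1 for complex III, 143 for complex IV and 193 for ATP synthase subunits. The complex II mean includes the SDHD copy on chromosome 5, at 0.121 RPKM. The median of the 4 tested complex II genes was 48.7 RPKM. Within complex I, 34 of 38 subunits lay within 2-fold of the median of 45.0 RPKM, the highest being NDUFS5 at 103. Complex IV was uneven, from cox4i1l at 4.39 to COX4I1 at 404 RPKM. The NDUFAF assembly factors, which help to build complex I and leave it, had a median of 6.36 RPKM.

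Summed over all members, RPKM was 10960, 8816 and 7880 in the wild type libraries and 8518, 9492 and 8144 in the tet2 mutant ones. The mean was 9219 ± 1580 in wild type and 8718 ± 696 in tet2 mutant libraries (SD, n = 3), a difference smaller than the spread within wild type. As a share of all counts, the members took 1.04%, 0.924% and 0.847% in wild type and 0.85%, 0.979% and 0.873% in mutant libraries. The genotypes overlapped in the summed RPKM of each of the 5 complexes. In bulk RNA, fewer cells that express these genes and less RNA per cell cannot be told apart.

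**Figure D1:**
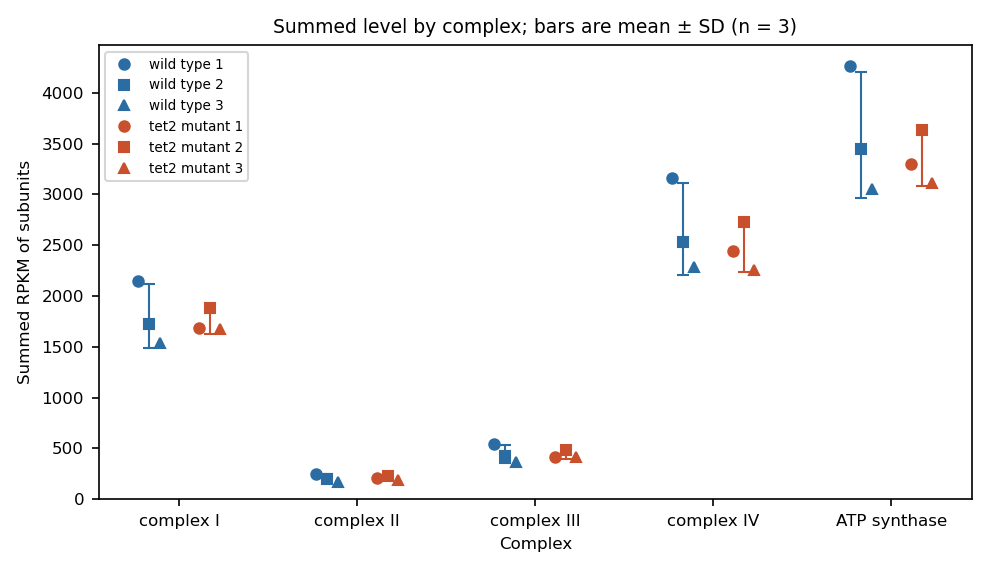
Summed RPKM of the subunit genes of each complex (y axis, linear from 0) for each of the 6 libraries, with bars for mean ± SD over 3 libraries per genotype. Wild type 1 is the highest library in all 5 complexes, and the genotypes overlap in each.

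The order of the libraries was shared by most members, whatever their complex. Wild type 1 was the highest of the 6 libraries for 83 of 97 members (85.6%), against 19.2% of all genes tested. Wild type 3 was the lowest for 58 members (59.8%), against 16.8% of all genes. Among the mutant libraries, tet2 mutant 2 was the highest for 77 members (79.4%), against 34.0% of all genes. On the scale of log2(CPM + 0.5), the median deviation of the members from their own 6-library mean was 0.29, -0.03 and -0.19 in the wild type libraries and -0.07, 0.09 and -0.11 in the mutant ones. The same library led among the electron carrier genes outside the symbol rule, whose summed CPM was 967, 776 and 692 in wild type and 799, 869 and 727 in mutant libraries. These are genes for cytochrome c and coenzyme Q synthesis, ETFA, ETFB and ETFDH, and CYC1. CYC1, itself a complex III subunit, had 219, 181 and 151 CPM in wild type and 177, 197 and 157 in mutant libraries. Wild type 1 also had the highest summed CPM for the tricarboxylic acid cycle (2650, others 2070 to 2550) and the mitochondrial ribosome (893, others 621 to 841). The same held for further assembly factors (796, others 581 to 729). It did not lead for glycolysis, regulators of respiratory gene transcription or the mitochondrial genome. The sum of the neutrophil markers was also highest in wild type 1, at 22000 CPM against 10700 and 11200 in the other wild type libraries. The mutant libraries had 12000 to 16900. Of these genes, lyz (13000 CPM) and npsn (6170 CPM) were highest in wild type 1, while mmp13a, MMP9, CSF3R and srgn were not. MMP9 was lowest there, at 87.3 CPM. The part of neutrophil content in the order was not tested.

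**Figure D2:**
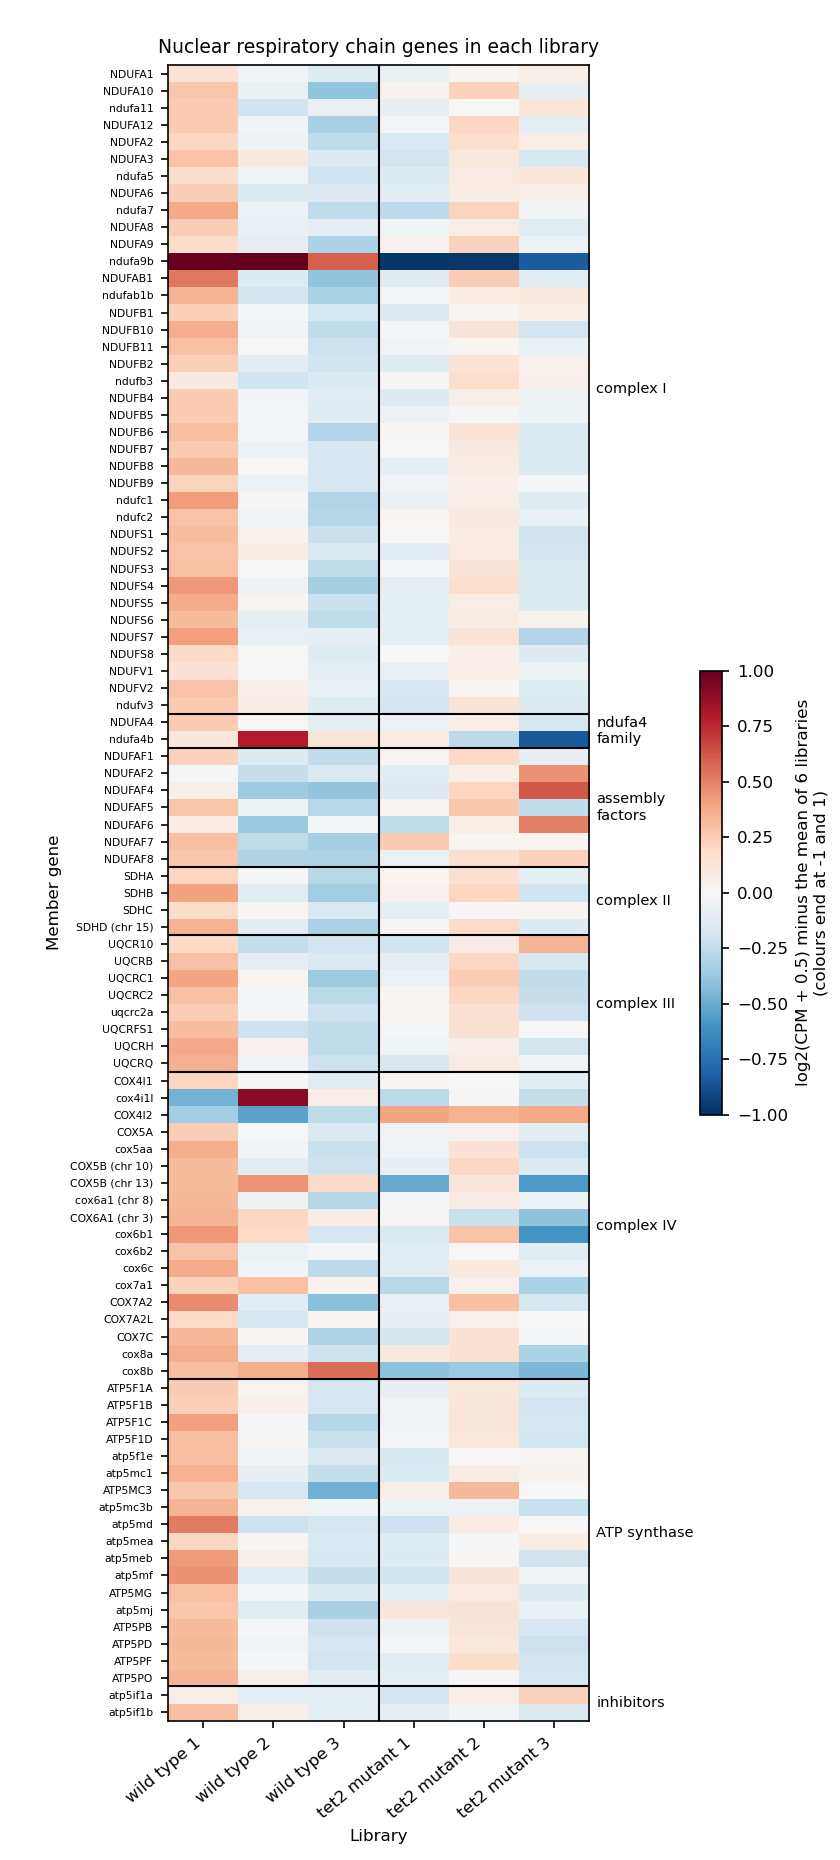
Heat map of the 97 members tested (rows, by complex) in the 6 libraries (columns); colour gives log2(CPM + 0.5) minus the member's mean over the 6 libraries, and colours end at -1 and 1. The wild type 1 column is red for most members (highest in 83 of 97), while COX4I2 and cox8b follow the genotype instead. The member ndufa9b separates by genotype and is also highest in wild type 1.

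Between genotypes, 1 of the 97 members passed the test, ndufa9b, which was lower in the tet2 mutant (edgeR quasi-likelihood test, Benjamini-Hochberg adjusted p under 0.05 over all genes). Over all genes, 0.206% were called lower and 0.0959% higher, and the members' 1.03% called lower rests on this 1 gene. With the replicate number as a block, and without both libraries numbered 3, 1 member was called (2.14% and 1.43% of all genes). DESeq2 called 1 member higher and 2 lower (1.8% and 2.54% of all genes). An unadjusted p under 0.05 was reached by 5 members (5.15%), against 11.9% of all genes. The genotypes did not overlap in 7 members (7.22%), against 18.2% of all genes, of which 7.88% were higher and 10.3% lower. Among the members, COX4I2 was higher, and the COX5B copy on chromosome 13, the COX6A1 copy on chromosome 3, atp5mc3b, cox8b, ndufa4b and ndufa9b were lower in every mutant library.

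The median log2 fold change of the members was -0.05 (all genes 0.02), and 69 of 97 (71.1%) lay below 0, against 48.1% of all genes. Without wild type 1, the median of the members was 0.08, and several of these small negative values turned positive. Among them were ATP5F1A (-0.08 in all libraries, 0.02 without wild type 1) and COX4I1 (-0.06 and 0.02). For 90 members (92.8%) the 95% interval of the fold change lay within 2-fold either way, against 53.6% of all genes. For 71 (73.2%) it lay within 1.5-fold, against 26.1%. These shares were not matched for level. The members had a median of 52.1 CPM and a median SE of 0.17, against 8.7 CPM and 0.27 for all genes tested. The 7 members whose interval reached past 2-fold were ndufa9b, cox8b, COX4I2, the COX5B copy on chromosome 13, ndufa4b, cox4i1l and NDUFAF4.

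**Figure D3:**
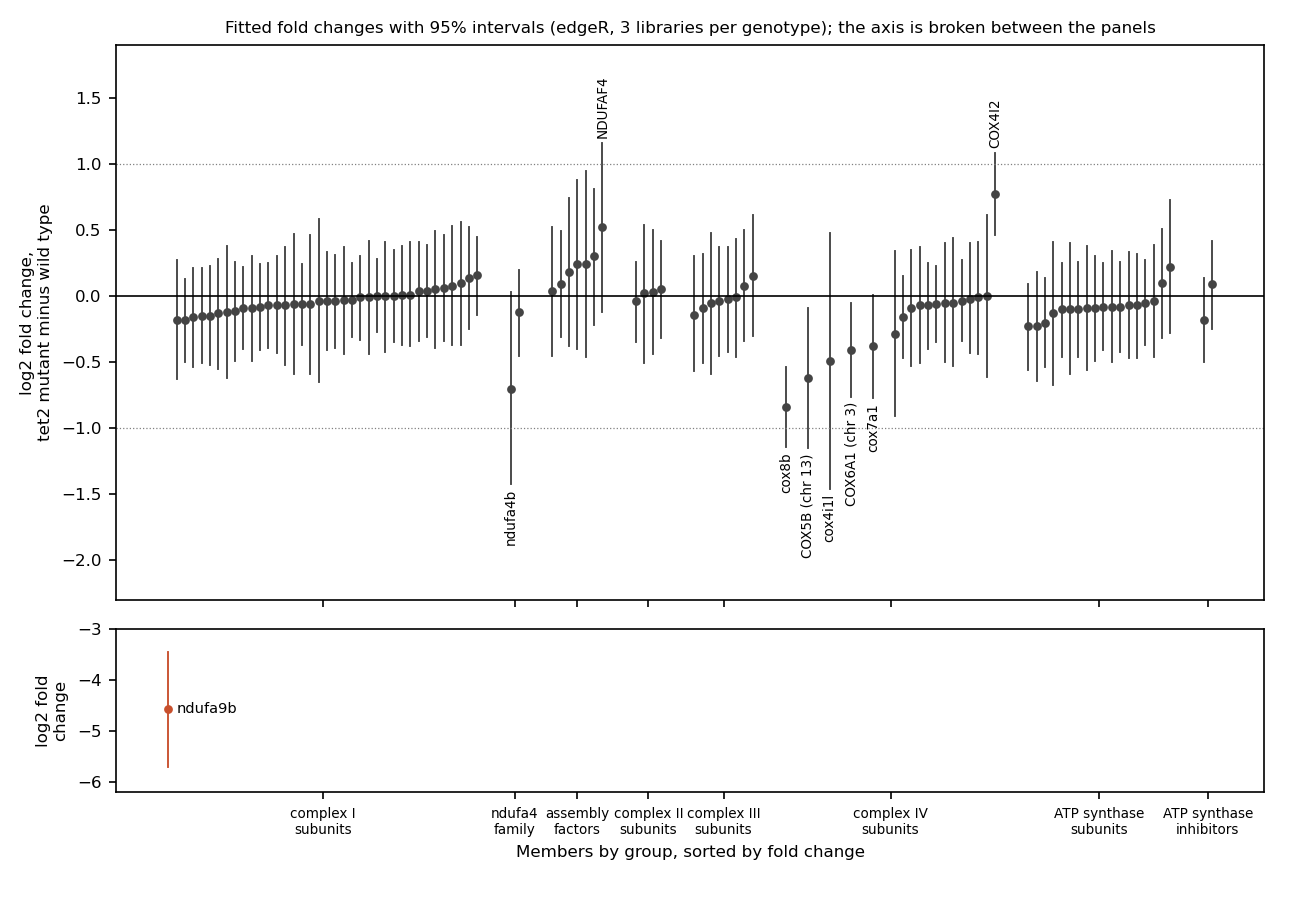
Fitted log2 fold changes (tet2 mutant minus wild type, y axis, broken between the panels) with 95% intervals for the 97 members tested, grouped by complex and sorted within each group; dotted lines mark 2-fold and orange marks the member past the threshold. Most members lie within 2-fold of 0, complex IV holds most of the members past 0.35 in size that are not past the threshold, and ndufa9b stands alone at -4.58.

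In complex I, which takes electrons from NADH, 37 of 38 subunits did not pass. The 7 conserved core subunits, the catalytic part of the complex, all had fold changes just below 0, from -0.18 for NDUFV2 and NDUFS7 to -0.03 for NDUFS3 on the log2 scale. NDUFV1, which binds NADH, had 136, 123 and 115 CPM in wild type and 117, 129 and 119 in mutant libraries (log2 fold change -0.03, SE 0.12). NDUFS1, an iron-sulphur subunit, had 188, 155 and 130 CPM in wild type and 152, 160 and 132 in mutant libraries (-0.09, SE 0.16), and for both genes the genotypes overlapped. The 31 accessory subunits, ndufa9b aside, ran from -0.16 for NDUFA3 to 0.16 for ndufb3. The accessory subunits highest in RPKM were NDUFS5 (log2 fold change -0.13) and NDUFB7 (-0.04).

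The exception, ndufa9b (ENSDARG00000094312), is the second zebrafish gene named after NDUFA9, an accessory subunit at the joint between the arms of complex I. It had 1.82, 1.70 and 1.11 CPM in wild type and 0.0421, 0.0430 and 0.0988 in the tet2 mutant ones. All 3 mutant libraries were far below all 3 wild type libraries. Tet2 mutant 1 and 2 lay under the floor of 3 counts (0.0609 and 0.0643 CPM). The gene passed the filter on low counts through its wild type libraries, so the size of the fall is uncertain. These values rest on 80, 71 and 50 reads in wild type and 2, 2 and 5 reads in the mutant, a ratio of 24.7 after scaling (95% interval 12.7 to 54.7, which covers counting error only). Fitted on the log2 scale, ndufa9b fell by 4.58 with an SE of 0.47 (edgeR, Benjamini-Hochberg adjusted p = 0.0321, and from 2.01e-08 to 0.18 over the alternatives). The call was lost when any 1 of the 6 libraries was left out (adjusted p from 0.0728 to 0.18, log2 fold change from -5.10 to -4.38), and it held without both libraries numbered 3 (adjusted p = 0.0136). In that last fit egg markers still separated the genotypes.

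In RPKM, ndufa9b was the minor of the pair in both genotypes. NDUFA9 itself (ENSDARG00000070723) stood at 29.8 RPKM in wild type and 32.8 in mutant libraries (log2 fold change 0.14, SE 0.16), against 2.08 and 0.0826 for ndufa9b. Of the RPKM of both genes, ndufa9b gave 6.47% ± 0.816 in wild type and 0.26% ± 0.16 in mutant libraries (SD, n = 3). The mutant share rests on 2 to 5 reads of ndufa9b per library. The gene model of ndufa9b is a single exon of 742 bases on chromosome 10, 8169734 to 8170475, minus strand (GRCz10). It lies within the span of pstpip2 (8142980 to 8187004, plus strand) without touching that gene's exons. Since the counts are not stated to use strand, reads from unspliced pstpip2 RNA and from ndufa9b cannot be told apart there. The level of pstpip2 stood at 59.6 CPM in wild type and 63.9 in mutant libraries (log2 fold change 0.10). The nearest genes on either side, SUB1 (-0.10) and DHX29 (0.35), did not pass. Beyond SUB1, 3 genes had higher means in the mutant without passing: si:ch211-251f6.6 (0.113 CPM in wild type and 7.06 in mutant libraries, edgeR, Benjamini-Hochberg adjusted p = 0.0838), zgc:173443 (0.0892 and 1.9 CPM, 0.18) and zgc:136254 (20.1 and 140.0 CPM, 0.627).

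The ndufa4 family was first assigned to complex I, and its main protein is now placed with complex IV. NDUFA4 stood at 257 RPKM in wild type and 236 in mutant libraries, with a log2 fold change of -0.12. Its copy ndufa4b (chromosome 12, 9842650 to 9846483) had 16.8, 27.1 and 16.9 CPM in wild type and 16.3, 12.8 and 8.40 in mutant libraries. The mutant libraries were all lower, but by as little as 0.495 CPM at the nearest pair, and the gene did not pass (log2 fold change -0.70, SE 0.30; edgeR, Benjamini-Hochberg adjusted p = 0.437).

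All 7 NDUFAF assembly factors had fold changes above 0, with a median log2 fold change of 0.24, and none passed. The highest was NDUFAF4, at 7.22, 5.33 and 5.17 CPM in wild type and 6.31, 8.16 and 11.0 in mutant libraries (log2 fold change 0.52, SE 0.27; edgeR, Benjamini-Hochberg adjusted p = 0.508). The genotypes overlapped, and tet2 mutant 3, the library with the most egg transcripts, was the highest. The same library was also the highest of the 6 for NDUFAF2 (log2 fold change 0.30) and NDUFAF6, which had 9.98 CPM there and 5.21 to 7.31 in the others. Without tet2 mutant 3, the log2 fold change of NDUFAF6 was -0.01 in place of 0.24. NDUFAF8 (0.24) was the lowest of the group in CPM, at 1.81 to 2.94 over the 6 libraries. In contrast, NDUFAF1, NDUFAF5, NDUFAF7 and NDUFAF8 were highest in wild type 1, where egg markers summed to 8.04 CPM. The part of egg content in the levels of the assembly factors was not tested.

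Complex II, which links the tricarboxylic acid cycle to the chain, was the group nearest to 0, with log2 fold changes from -0.04 to 0.05 in its 4 tested genes. SDHA, the flavoprotein that oxidises succinate, had 216, 184 and 154 CPM in wild type and 189, 209 and 174 in mutant libraries (0.05, 95% interval -0.32 to 0.42). SDHB, its iron-sulphur partner, had 122, 85.5 and 72.3 CPM in wild type and 95, 107 and 80.4 in mutant libraries (0.02, interval -0.51 to 0.54). The range of the mutant libraries lay inside the wild type range for both. The membrane anchor SDHD is listed under 2 gene IDs, and the copy on chromosome 15 gave nearly all reads, 1623 to 2502 per library, against 4 to 7 for the copy on chromosome 5.

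Complex III, which hands electrons to cytochrome c, had a median log2 fold change of -0.03, and all of its 8 member genes overlapped between genotypes. The core protein UQCRC1 had 200, 154 and 119 CPM in wild type and 146, 180 and 128 in mutant libraries (-0.05), and the Rieske iron-sulphur protein UQCRFS1 had 147, 103 and 99.9 against 118, 132 and 119 (0.08). In both, the lowest library was wild type 3 and the highest wild type 1. The highest in RPKM were UQCRH, the hinge protein that helps cytochrome c bind (mean 103 RPKM, log2 fold change -0.14), and UQCR10 (73.7 RPKM, 0.15). Of the RPKM of UQCRC2 and uqcrc2a, 2 genes for the second core protein, uqcrc2a gave 23.7% ± 0.651 in wild type and 23.6% ± 0.532 in mutant libraries (SD, n = 3).

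Complex IV, which reduces oxygen, held 4 of the 5 members with an unadjusted p under 0.05, and none of its 18 genes passed. These were 4 of its 18 genes, while 11.9% of all genes reached such a p. The same 4 were its genes without overlap between genotypes, against 18.2% of all genes. Each of the 4 is a copy of a subunit gene that has another copy. The log2 fold changes of their partner copies ran from -0.06 to -0.01, apart from cox4i1l (-0.49), a further copy of subunit 4. The pairs are plotted by RPKM in the panels on gene copies.

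COX4I2 (chromosome 23, 19018045 to 19024805) encodes the alternative subunit 4, which in mammals is found in lung and in oxygen-sensing cells. It had 13.7, 11.9 and 14.6 CPM in wild type and 23.1, 22.4 and 22.9 in the tet2 mutant ones. Every mutant library lay above every wild type library, and the 3 mutant values were within 0.726 CPM of each other. The log2 fold change was 0.77 (SE 0.13), which did not pass (edgeR, Benjamini-Hochberg adjusted p = 0.085), although DESeq2 called it (adjusted p = 8.47e-06, and up to 0.33 over the alternatives). Its share of the RPKM of COX4I1 and COX4I2 was 3.28% ± 0.522 in wild type and 5.65% ± 0.269 in mutant libraries (SD, n = 3), without overlap. COX4I1 itself had a log2 fold change of -0.06, and cox4i1l, a further copy at 2.75 to 7.95 CPM, one of -0.49 that was 0.02 without wild type 2.

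Markers of mural and oxygen-sensing cells, the kinds of cell that use COX4I2 in mammals, were mixed. The 9 listed genes summed to 59.2 to 83.1 CPM in wild type and 44.0 to 68.0 in mutant libraries, 5 of the 8 tested were below 0 and none was at 0 in all libraries. The pericyte receptor gene PDGFRB had 3.48, 5.16 and 7.16 CPM in wild type and 9.05, 7.28 and 9.63 in mutant libraries, all higher, as COX4I2 was (log2 fold change 0.72, SE 0.30, edgeR, Benjamini-Hochberg adjusted p = 0.415). Other mural cell genes did not follow it. RGS5 (log2 fold change -0.43) and CSPG4 (-1.06, under 1 CPM) were lower in all mutant libraries, while rgs5b (0.59), ABCC9 (0.11) and NOTCH3 (-0.01) overlapped between genotypes. For RGS5 the nearest values were almost equal, 6.99 CPM in wild type 1 and 6.96 in tet2 mutant 3. The hypoxia factor gene EPAS1 (ENSDARG00000008697) was lower in all mutant libraries and had 15.2 ± 3.52 CPM in wild type and 8.12 ± 2.08 in mutant libraries (SD, n = 3), a log2 fold change of -0.91 that did not pass (edgeR, Benjamini-Hochberg adjusted p = 0.256). A further EPAS1 copy (ENSDARG00000057671), higher in CPM, had a log2 fold change of -0.69, with overlap between genotypes. None of the 8 passed, and the part of these cells in the level of COX4I2 was not tested.

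In the other direction, cox8b (chromosome 25, 10402836 to 10406237) encodes the form of subunit 8 that marks heart and skeletal muscle in rodents. It had 26.4, 27.6 and 31.7 CPM in wild type and 15.9, 16.5 and 15.5 in mutant libraries. All mutant libraries were lower, and wild type 3, low for most members, was here the highest. The log2 fold change was -0.84 (SE 0.12), which did not pass (edgeR, Benjamini-Hochberg adjusted p = 0.0661), although DESeq2 called it (adjusted p = 1.11e-06, and up to 0.262 over the alternatives). Its share of the RPKM of cox8a and cox8b was 17% ± 3.97 in wild type and 10.4% ± 1.47 in mutant libraries. The partner cox8a, which overlaps an exon of another gene on the opposite strand, had a log2 fold change of -0.05.

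The COX6A1 copy on chromosome 3 (ENSDARG00000054588, 30909081 to 30911260) lies among the neighbours of cox6a2 in the RefSeq gene table (assembly GRCz12tu), the gene whose mammalian counterpart is the heart and muscle form. It had 142, 130 and 118 CPM in wild type and 113, 95.9 and 84.8 in mutant libraries. The groups did not overlap, by 4.79 CPM at the nearest pair, and the log2 fold change of -0.41, with an SE of 0.15, did not pass (edgeR, Benjamini-Hochberg adjusted p = 0.352). Its exons overlap armc5 on the opposite strand, so that part of its reads is of uncertain origin. The copy on chromosome 8, named cox6a1, had a log2 fold change of -0.02. Of the RPKM of both copies, the copy on chromosome 3 gave 63.4% ± 2.95 in wild type and 56.4% ± 3.57 in mutant libraries (SD, n = 3), with overlap.

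The COX5B copy on chromosome 13 (ENSDARG00000068738, 50062547 to 50064795; cox5b2 by its RefSeq neighbours) had 24.4, 26.6 and 22.3 CPM in wild type and 13.6, 21.2 and 12.9 in mutant libraries. The nearest values, wild type 3 and tet2 mutant 2, were 1.08 CPM apart, and the log2 fold change of -0.62 (SE 0.22) did not pass (edgeR, Benjamini-Hochberg adjusted p = 0.342). The main copy on chromosome 10 had 384 RPKM in wild type and 381 in mutant libraries (log2 fold change -0.01). For cox7a1, whose mammalian counterpart is the heart and muscle form of subunit 7A, CPM was 17.5, 18.3 and 15.2 in wild type and 12.2, 15.3 and 11.8 in mutant libraries (-0.38, SE 0.16; adjusted p = 0.435 by the same test). The overlap there came from wild type 3 and tet2 mutant 2 alone, and COX7A2, the widely used form, had a log2 fold change of 0.00 (95% interval -0.61 to 0.61).

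Subunit 6B, on the outer face of the complex, drew on both of its genes. Here cox6b1 had 121, 102 and 79.6 CPM in wild type and 80.6, 109 and 58.8 in mutant libraries (log2 fold change -0.29, SE 0.26), and cox6b2 had 193, 152 and 157 against 146, 158 and 147 (-0.16, SE 0.13). Both overlapped between genotypes, and cox6b1 gave 59.8% ± 3.57 of the pair's RPKM in wild type and 57.1% ± 6.76 in mutant libraries (SD, n = 3). COX7A2L, which in mammals helps to join complexes III and IV into larger assemblies, had 59.8, 46.7 and 53.0 CPM in wild type and 49.3, 53.9 and 52.1 in mutant libraries (-0.04), with overlap.

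Skeletal muscle markers were lower in the mutant, and so were the means of cox8b, cox7a1 and the COX6A1 copy on chromosome 3. These 3 are tied to muscle only through rodent or mammalian counterparts, and the cells that express them here were not identified. The copy on chromosome 3 was the major COX6A1 copy in both genotypes. All 22 tested marker genes were below 0 with a median log2 fold change of -1.66, 18 did not overlap between genotypes, and 9 of the 26 matched genes were under 1 CPM. None passed, while with the replicate number as a block 6 were called lower (myhz2, TNNI2, 2 genes named MYL1, tpma and pvalb1). The marker sum was 347, 403 and 315 CPM in wild type and 142, 73.4 and 130 in mutant libraries. Within a genotype the order of libraries was not the same. The sum was lowest in wild type 3 and tet2 mutant 2, where cox8b was highest of its genotype (31.7 and 16.5 CPM). For cox7a1 the highest were wild type 2, as for the markers, and tet2 mutant 2. The COX6A1 copy on chromosome 3 was highest in wild type 1 and tet2 mutant 1. The part of muscle content in the lower values of these 3 genes was not tested. Cardiac and smooth muscle markers summed to 439 to 590 CPM in wild type and 519 to 726 in mutant libraries, with 4 of 8 below 0, and nearly all of this sum came from the smooth muscle genes MYH11 and TAGLN. The cardiac genes tested, cmlc1 (0.358 to 1.05 CPM in wild type and 0.0198 to 0.172 in mutant libraries) and myh6 (0.319 to 0.597 and 0.0842 to 0.277), were both lower in every mutant library, and neither passed. Their part in the level of cox8b was not tested either.

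**Figure D4:**
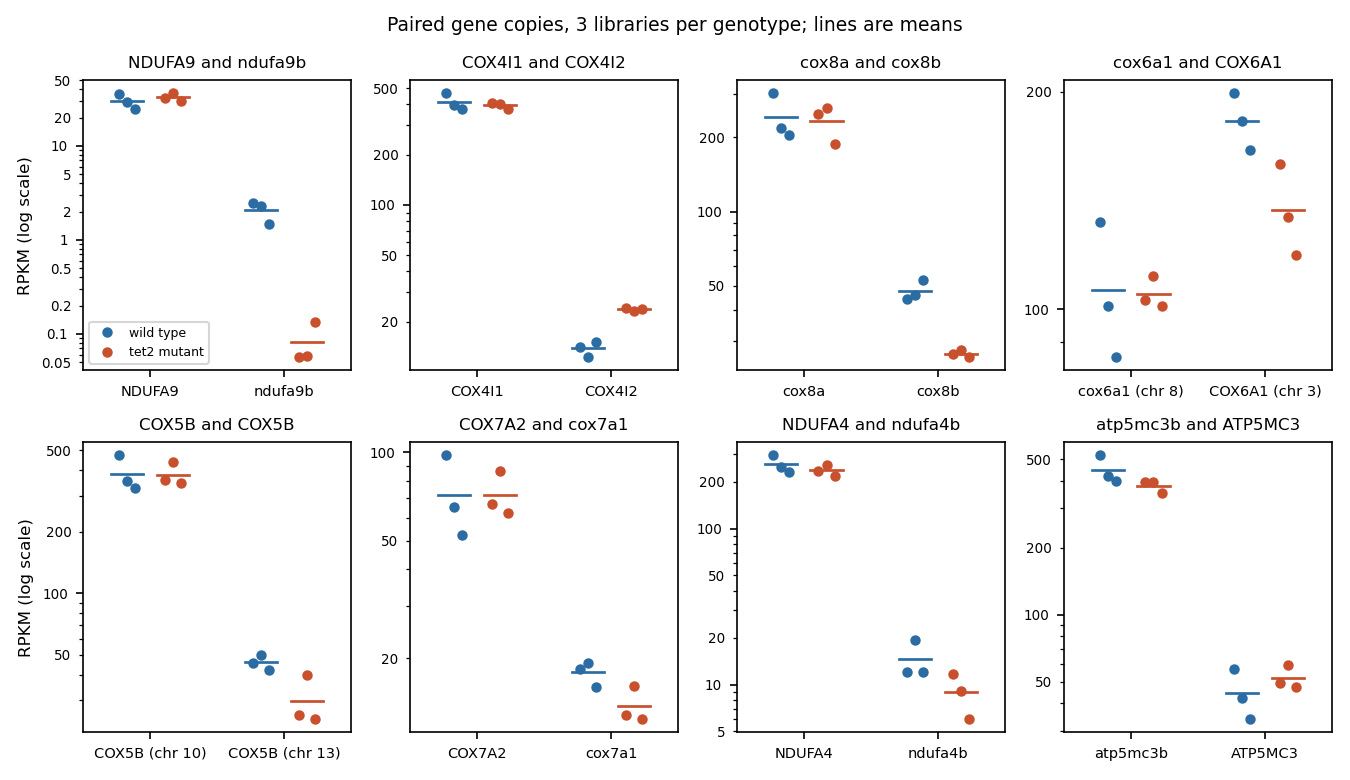
RPKM (log scale) of 8 pairs of gene copies in each library; blue points are wild type, orange points tet2 mutant, and lines are means over 3 libraries. The minor copies ndufa9b, cox8b and COX5B on chromosome 13 lie lower and COX4I2 higher in all mutant libraries, while the major copy of each of these pairs overlaps between genotypes. In other pairs the minor copy ndufa4b and the major copies COX6A1 on chromosome 3 and atp5mc3b also lie lower in all mutant libraries, and their partners overlap.

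The 18 ATP synthase subunits spread little, with log2 fold changes from -0.23 to 0.22 around a median of -0.09, and none passed. ATP5F1B had 1330, 1170 and 1000 CPM in wild type and 1100, 1220 and 988 in mutant libraries (-0.08, 95% interval -0.42 to 0.26), and ATP5F1A had 1060, 906 and 793 against 841, 955 and 810 (-0.08, interval -0.41 to 0.25). Wild type 1 was the highest library for both. The 5 genes of the F1 head and central stalk ran from -0.10 to -0.07, and the 4 of the peripheral stalk, which holds the head still, from -0.20 for ATP5PO to -0.07.

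The c ring, turned by the proton flow, has 3 genes among the members, and in mammals the mature protein of the corresponding genes is the same. Its main source, atp5mc3b, had 540, 438 and 414 CPM in wild type and 408, 410 and 365 in mutant libraries (log2 fold change -0.23, SE 0.13; edgeR, Benjamini-Hochberg adjusted p = 0.56). The groups were separated by 4.26 CPM, against a range of 125 CPM within wild type. ATP5MC3, which overlaps an exon of another gene on the opposite strand, had 104, 77.0 and 61.5 CPM in wild type and 89.2, 108 and 85.6 in mutant libraries (0.22), with overlap, and atp5mc1 had a log2 fold change of -0.04. By RPKM, ATP5MC3 gave 6.55% ± 0.657 of the 3 genes' sum in wild type and 8.50% ± 0.66 in mutant libraries (SD, n = 3), and this share did not overlap between genotypes.

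The inhibitor of ATP synthase, which blocks the enzyme from running backwards, has 2 genes in zebrafish, and loss of atp5if1a is known to impair haem synthesis in zebrafish red cells. It had 75.3, 67.7 and 67.9 CPM in wild type and 63.6, 75.6 and 84.6 in mutant libraries (log2 fold change 0.09, SE 0.14), and atp5if1b had 63.9, 53.5 and 48.6 against 48.6, 50.8 and 46.9 (-0.18, SE 0.13). Both overlapped between genotypes.

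Other genes of the pathway were counted from lists outside the symbol rule. Of 41 further assembly factors tested, 1 fell, taco1, whose product promotes the synthesis of the mitochondrially encoded COX1 protein, and the list's median log2 fold change was 0.10. Its values were 12.5, 8.22 and 10.3 CPM in wild type and 1.89, 1.91 and 1.70 in mutant libraries (log2 fold change -2.49, SE 0.23; edgeR, Benjamini-Hochberg adjusted p = 0.0321). The genotypes were well apart, yet the call was lost without any 1 library (adjusted p from 0.0728 to 0.145, log2 fold change from -2.63 to -2.34). None of 19 electron carrier genes (median 0.05), 18 genes of the tricarboxylic acid cycle (-0.01), 27 genes of the mitochondrial ribosome (0.12) or 29 glycolysis genes (-0.06) passed, although with the replicate number as a block 1 glycolysis gene, a minor copy of TPI1 (ENSDARG00000025012), was called higher. That copy had 1.39, 1.34 and 14.1 CPM in wild type and 6.9, 4.96 and 43.6 in mutant libraries, with the libraries in the same order as by the summed egg markers, whose part was not tested. The main TPI1 copy (ENSDARG00000040988) had a log2 fold change of -0.12.

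Among 17 regulators of respiratory gene transcription, none passed and the median log2 fold change was 0.10. NRF1, a factor that binds the promoters of many respiratory genes, had 49.2 ± 2.27 CPM in wild type and 51.1 ± 10.3 in mutant libraries, and TFAM, which packs and transcribes mitochondrial DNA, had 38.7 ± 9.44 and 38.4 ± 4.73 (SD, n = 3). The coactivator gene pprc1 had 46.6, 24.0 and 36.4 CPM in wild type and 54.1, 64.9 and 83.5 in mutant libraries, all higher, with a log2 fold change of 0.92 that did not pass (edgeR, Benjamini-Hochberg adjusted p = 0.263).

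The 13 respiratory genes of the mitochondrial genome, whose products join the members in the same complexes, summed to 40600 to 47200 CPM in wild type and 29500 to 41400 in mutant libraries, with a median log2 fold change of -0.13. None passed. MT-CO1, the catalytic subunit of complex IV, had 17200, 20200 and 18200 CPM in wild type and 11200, 14100 and 10900 in mutant libraries (log2 fold change -0.62, SE 0.14; edgeR, Benjamini-Hochberg adjusted p = 0.15, and 0.0173 with the replicate number as a block). MT-ND2, of complex I, had 782, 588 and 464 against 1160, 1420 and 979 CPM (log2 fold change 0.96, SE 0.23; adjusted p = 0.163 by the same test, and 0.0394 with the block). Both genes were without overlap, in opposite directions. MT-CO2 (log2 fold change -0.38) and MT-CYB (-0.46) were also lower in every mutant library, so that 3 of the 13 genes were lower and 1 higher without overlap.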

How the data were processed

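Total RNA of 6 libraries was sequenced. The authors deposited, for each library, whole-number counts of reads over 31484 Ensembl genes, not normalized, and beside them each gene's length in bases (unit: other). The submitters' processing notes name Trimmomatic 0.36 for trimming, STAR 2.5.2b for alignment and the build GRCz10. How reads were counted, including strand, multiple matches and annotation release, is not given in the sources used here, so reads of overlapping genes (13 members) and close copies are of uncertain origin. A name table gave symbols to 25752 gene IDs. For 6 members whose symbol stands on more than 1 gene ID, a copy's name was read from shared neighbours in the RefSeq table (assembly GRCz12tu). That table was used for the order of genes only, and none of its coordinates is printed here.

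Genotypes were compared on the whole table in R 4.3.3 with edgeR 4.0.16: filterByExpr by genotype, TMM scaling, two-sided quasi-likelihood F test with no covariate, Benjamini-Hochberg adjusted p under 0.05. The script was tested on simulated data. Total counts ran from 41285460 to 49229143, and a floor of 3 counts equals 0.0609 to 0.0727 CPM. The floor and the interval of the ndufa9b read ratio cover counting error only, while the intervals of fold changes come from the edgeR fit and include the spread between libraries. Alternatives were RLE scaling, 2 other filters, DESeq2 1.42.0, limma 3.58.1 (voom), a replicate block, each library left out, both libraries numbered 3 left out, and the assembly factors and inhibitors left out of the list. No 2 libraries of a genotype were copies (chi-square of counts over degrees of freedom from 51.9 to 154). The labels do not say how many fish made a library, so p-values measure only the spread between these libraries.

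Replicates carry the numbers 1 to 3 within each genotype in the labels. Deviations from the genotype mean over 17534 genes had r = 0.415, 0.589 and 0.716 between same-numbered libraries and from -0.551 to 0.188 between others. Since the deviations of a genotype cancel out for each gene, high values for some pairs of libraries force low values for others. From the same-numbered values, the numbers were taken to pair the libraries in the fit with the replicate block, while the main test leaves this pairing out. The pairing was read from the data, and the calls made with the block depend on it. Egg markers, highest of each genotype in the libraries numbered 3, and liver markers, highest in those numbered 2, were not separated from it.

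Named with values were every member past the threshold, the 5 highest and 5 lowest fold changes with at least 1 CPM on average in 1 genotype, the 5 smallest p, the 2 highest RPKM of each complex, and isoform pairs known to differ between tissues. NDUFV1, NDUFS1, NDUFA9, UQCRC1, UQCRC2, uqcrc2a, UQCRFS1, the SDHD copies, ATP5PO, the ends of each range and the genes outside the members were chosen after their values were seen. The members and lists were chosen with earlier results of these data known. A search of promoters for motifs was not run, since no promoter sequence was used here.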

Additional observations from a re-analysis of the deposited data

How the results depend on the processing

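The medians of all members and of each complex moved by less than the spread between replicates under every alternative run, but their signs were not fixed. Without wild type 1 the median went from -0.05 to 0.08 over all members and from -0.04 to 0.09 in complex I. It went from -0.03 to 0.12 in complex III, from -0.07 to 0.04 in complex IV and from -0.09 to 0.05 in ATP synthase. No member was called higher and 1 lower by edgeR, while DESeq2 called 1 higher (COX4I2) and 2 lower (cox8b, ndufa9b). Leaving out 1 library gave 0 members lower each time. With the replicate number as a block, ndufa9b kept its call (adjusted p = 0.0231), and COX4I2 (0.057) and cox8b (0.0502) stayed above the threshold; the block changed no call of a member. Over all genes, 66 were called, 468 with the block, 950 by DESeq2, 312 without both libraries numbered 3 and 2 to 15 without 1 library. Of 34 named members, 18 changed sign under some alternative, each from a value between -0.14 and 0.15 except cox4i1l and NDUFAF6. Without both libraries numbered 3, the log2 fold change was -0.02 for SDHA, -0.04 for SDHB, -0.06 for UQCR10, -0.10 for COX7A2 and -0.05 for atp5if1a. It was 0.01 for cox6a1 with limma-voom and 0.01 with the block, and -0.01 for COX7A2 without a filter. Over the fits that left out 1 library, log2 fold changes ran from -0.19 to 0.02 for ATP5F1A, from -0.19 to 0.01 for ATP5F1B, from -0.14 to 0.02 for COX4I1, from -0.13 to 0.15 for the COX5B copy on chromosome 10, from -0.19 to 0.27 for COX7A2 and from -0.13 to 0.05 for COX7A2L. They ran from -0.01 to 0.41 for NDUFAF6, from -0.13 to 0.08 for NDUFB7, from -0.27 to 0.03 for NDUFS5, from -0.08 to 0.16 for SDHA, from -0.14 to 0.24 for SDHB and from -0.29 to 0.03 for UQCRH. They ran from -0.03 to 0.19 for atp5if1a, from -0.16 to 0.14 for atp5mc1, from -0.80 to 0.02 for cox4i1l, from -0.16 to 0.16 for cox6a1 and from -0.16 to 0.14 for cox8a. The cause was not tested. Depth limits ndufa9b, with 2 to 5 reads per mutant library, and the untested NDUFA4L2, ndufa4l2b and SDHD on chromosome 5.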

Other observations

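Other cell types in the suspension differed between libraries beside the members. Kidney tubule markers summed to 1070 to 1350 CPM in wild type and 866 to 1040 in mutant libraries, with a median log2 fold change of -0.79 over 16 genes and 1 gene, SLC5A12, called lower by edgeR (Benjamini-Hochberg adjusted p under 0.05). With the replicate number as a block, 7 of these genes were called lower (SLC5A12, CDH17, pdzk1, SLC26A1, SLC22A2, CUBN and LRP2). The 12 liver markers together had 41.9, 600.0 and 109 CPM in wild type libraries and 21.5, 1640 and 66.4 in the mutants, highest in both libraries numbered 2. Erythroid markers had a median log2 fold change of -0.28 and lymphoid markers one of -0.11 (138 to 166 summed CPM in all libraries), and neither list held a called gene. Macrophage markers summed to 2140 to 2570 CPM in wild type and 2030 to 2720 in mutant libraries, and none was called without the replicate block, while 1 (MFAP4) was lower with it. All 14 egg markers were above 0 with a median log2 fold change of 2.34, and none was called without the replicate block, while 1 (zpcx) was higher with it.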
